A study of Mus musculus with 2 samples.

Results

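The 39 genes described here encode proteins of S phase, the part of the cell cycle in which the genome is copied. They were taken from a list written for this work, and all 39 of them were among the 21041 genes of the expression matrix. By role, 14 license replication origins or form the replicative helicase, and 10 are polymerase, primase, sliding clamp or clamp loader subunits. Another 2 act in the joining of DNA strands, the flap nuclease Fen1 and the ligase Lig1. A further 4 supply nucleotides, 5 act on chromatin and histones, and 4 control entry into S phase or its checkpoint. Each gene was followed across the annotated cell types, the epithelial subtypes and the authors' CIN_high and CIN_low classes, with the epithelial cells that the authors called Proliferating given apart.

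The cells came from distal colon adenomas of mice of the strain Apcmin;LSL-mTERT, harvested at 25 weeks of age and sequenced on the 10x Genomics droplet platform. Apcmin mice carry a truncating mutation of Apc, a brake on Wnt signalling, and LSL-mTERT names a mouse Tert allele behind a stop cassette. Both groups carry both alleles. The title of the study concerns chromosome instability that starts from telomeres and competition between neighbouring cells. The labels name the groups G0+T and G4+T, each with a single library, without spelling these names out. They do not give the promoter or Cre that opens the Tert allele, the number of mice, or whether animals were pooled.

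Before a cell divides, origins are licensed by loading the MCM2-7 helicase with the help of Cdc6 and Cdt1, which geminin (Gmnn) restrains. Cdc45 and the GINS complex then switch the helicase on, primase and polymerase alpha start each strand, and PCNA, loaded by replication factor C, holds the other polymerases on the template. The E2F transcription factors, released when cyclins and their kinases inactivate the retinoblastoma protein, switch on many of these genes at the border of G1 and S phase. In the intestine such cells are found mostly in the lower crypt, and in adenomas also outside it.

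Because E2F binding is the best known shared control of this gene set, the promoters were searched for its core letters. RefSeq promoters (GRCm38.p6, 250 bases before to 50 bases after a start) were found for 31 of the 39 genes, 36 promoters in all. The motif was TTTCCCGC, TTTCGCGC, TTTGCCGC or TTTGGCGC on either strand. It occurred in the promoters of 14 of the 31 genes (45.2%), against 704 of all 27025 genes with a promoter (2.61%) and 575 of 17492 protein-coding genes (3.29%). The 14 were Mcm3, Mcm5, Mcm6, Mcm7, Cdc6, Cdt1, Gins3, Pola1, Pold1, Rfc3, Lig1, Uhrf1, Hells and Clspn. The CHR element of genes used late in the cycle (TTTGAA, either strand) was in 4 of the 31 genes (12.9%) against 20.2% of all genes. The CCAAT box (CCAAT, either strand) was in 18 of them (58.1%) against 41.1%. A match is a string of letters and not a measured binding site. Below are stretches around matches before the RefSeq start, for the gene of each role with the highest epithelial level that had such a match, with the E2F letters in capitals. Mcm6 was added after the matches were seen because its promoter held the most, 3, of which the first 2 overlap. The stretches are 5′ to 3′ on the gene's strand, at chr5:138172030-138172059 (minus strand) for Mcm7, chr5:151651209-151651238 (minus) for Rfc3, chr19:38930917-38930946 (plus) for Hells and chr1:128359744-128359823 (minus) for Mcm6. In the GENCODE M21 annotation the first 3 lie in untranslated sequence of a transcript of the same gene (that of Mcm7 also of Ap4m1), and the Mcm6 stretch in none.
Mcm7: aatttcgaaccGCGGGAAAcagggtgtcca
Rfc3: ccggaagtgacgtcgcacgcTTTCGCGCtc
Hells: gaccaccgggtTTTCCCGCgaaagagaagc
Mcm6: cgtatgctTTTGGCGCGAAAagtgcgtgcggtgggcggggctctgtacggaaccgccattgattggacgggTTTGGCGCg
In the results that follow, Hells was among the genes that differed most between the libraries. In another comparison, Mcm7 and Rfc3 were among those that differed least between Proliferating and other epithelial cells. Whether the motif goes with either difference was not tested.

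The authors' CIN class followed the barcode suffix: all 6189 cells carrying the first suffix were CIN_high and all 7908 carrying the second were CIN_low, so the class separates 2 libraries. The suffix numbers match the numbers in both sample titles, but the prefix shared by all cell names fits the first title alone. These labels conflict, and no cell was assigned to G0+T or G4+T. The libraries held 51868113 (CIN_high) and 74733715 (CIN_low) UMIs, the molecules counted after removal of amplification copies. Epithelial cells had medians of 14032.5 and 15364 UMIs, and Proliferating cells of 24594 and 24592. Barcodes found in both libraries numbered 11, and 1 of these cells was Proliferating. With 1 library per class there is no replicate, no test and no p-value. Levels are given as UMIs per 10000 UMIs of a cell, averaged over cells. Each range beside a level, ratio or share is a 95% interval for counting error only. Ranges beside levels and ratios leave out the spread between the cells of a group and would be wider with it. Differences between mice, pieces of tissue or preparations cannot be told apart from the class. Fewer cycling cells and less RNA per cycling cell cannot be told apart in a mean over mixed cells.

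The annotated Proliferating cells numbered 111 of 1316 epithelial cells in the CIN_high library (8.43%, 6.99% to 10.1%) and 199 of 1725 in the CIN_low library (11.5%, 10.1% to 13.1%). Their label was checked against 26 genes of G2 phase and mitosis, none of them among the 39. The summed level of these 26 genes was 44.6 (CIN_high) and 52.3 (CIN_low) UMIs per 10000 in Proliferating cells and 1.95 and 2.03 in all other epithelial cells. All 8 epithelial markers had UMIs there, with summed levels of 74.5 and 83.5. Subtypes are drawn from the same expression values, so its levels against other cells are a description.

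The summed level of the 39 S phase genes was 28.0 UMIs per 10000 (27.3 to 28.7) in CIN_high and 31.7 (31.2 to 32.3) in CIN_low Proliferating cells, against 4.40 and 5.19 in the other epithelial cells. Proliferating cells thus held 49.1% and 56.5% of all epithelial UMIs of these genes, with 13.6% and 18.5% of all epithelial UMIs. The genes stood above the other epithelial cells by a median of 8.31-fold in the CIN_high library (2.01-fold to 24.3-fold) and 7.43-fold in the CIN_low library (2.47-fold to 24.1-fold). All 39 were past 1.5-fold in both libraries, as were 10.8% of all measured genes. For comparison, the median gene of the whole matrix stood at 0.954-fold and 0.917-fold, and the median of the 26 G2 and M phase genes at 31.7-fold and 37.1-fold.

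The members differed widely in this fold. Cdc45, the helicase activator, was at 0.273 (CIN_high) and 0.245 (CIN_low) UMIs per 10000 in Proliferating and 0.0112 and 0.0144 in other epithelial cells, 24.3-fold (13.7 to 42.0) and 17.1-fold (11.4 to 25.8). Rrm2, the ribonucleotide reductase subunit made in S phase, stood 19.6-fold and 24.1-fold higher. Uhrf1, which reads half-methylated DNA behind the fork, stood 17.9-fold and 19.4-fold higher. Clspn, the checkpoint mediator claspin, stood 15.7-fold and 19.0-fold higher. Slbp, which binds the stem-loop of histone mRNA, was the least different, at 0.927 and 1.13 against 0.461 and 0.458, 2.01-fold (1.71 to 2.36) and 2.47-fold (2.21 to 2.77). Rfc2, a clamp loader subunit, was 2.98-fold and 2.71-fold higher. Its fellow subunit Rfc3 was 3.73-fold and 2.71-fold higher, whereas Rfc4 was 7.74-fold and 8.59-fold and Rfc5 8.39-fold and 5.85-fold higher. The subunits of 1 complex thus had unlike folds. Within the helicase, Mcm7 was 3.57-fold and 3.33-fold higher and Mcm5 11.2-fold and 11.9-fold. Pcna, the sliding clamp, was 3.89-fold (3.46 to 4.39) and 3.97-fold (3.66 to 4.30) higher, and had a UMI in 51.5% and 58.3% of the other epithelial cells.

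**Figure D1:**
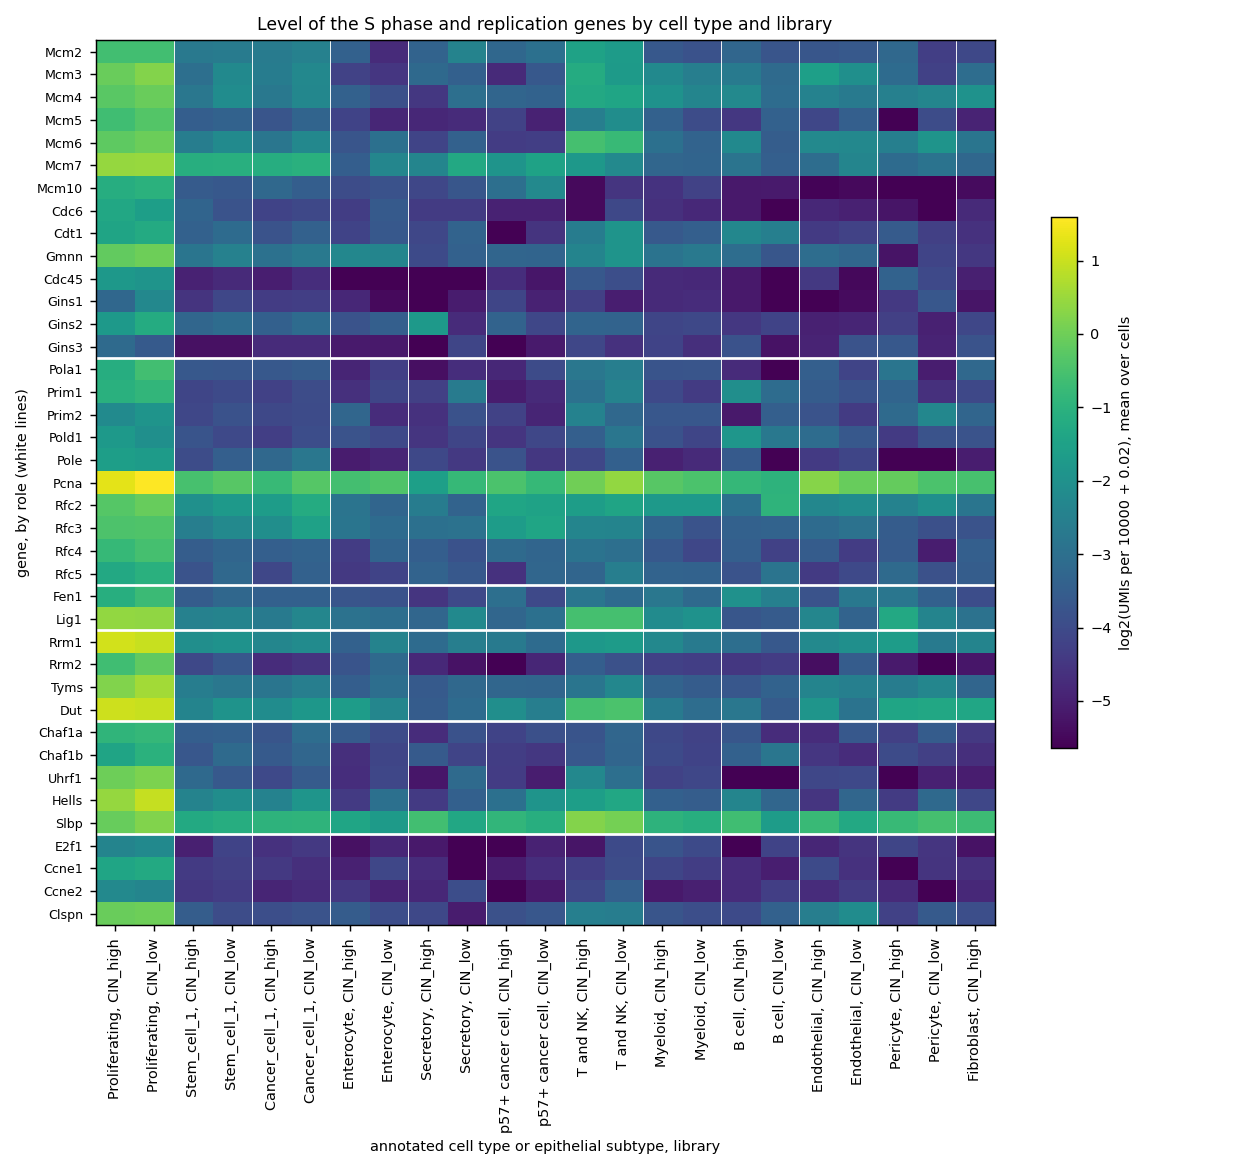
Heat map of the level of each of the 39 genes (vertical axis, grouped by role between white lines) in each annotated type or epithelial subtype of each library (horizontal axis), as log2 of the mean UMIs per 10000 plus 0.02. For nearly every gene the Proliferating columns are the brightest; Slbp is an exception, at 1.17 and 1.04 UMIs per 10000 in T and NK cells against 0.927 and 1.13 in Proliferating cells.

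Over all epithelial cells the summed level of the 39 genes was 6.39 (6.26 to 6.51) in the CIN_high and 8.25 (8.14 to 8.37) in the CIN_low library, a ratio of 0.774 (0.756 to 0.792). The ratio was below 1 for 38 of the 39 genes, as for 66.5% of all 13304 measured genes. Genes lower in CIN_high epithelium by at least 1.5-fold numbered 7 of 39, where 7.7% of all measured genes were that much lower, and 0 of 39 were that much higher, against 4.16%. The median log2 ratio was -0.38, against -0.10 over all genes. Centred on the median of all genes, 4 were at least 1.5-fold lower, and the share of all genes after centring is not given here. Measured genes were those with UMIs in 2% or more of the cells of either library, and all 39 were. In the same cells the 26 G2 and M phase genes stood at 5.54 and 7.83 (ratio 0.708), with 13 of 26 at least 1.5-fold lower. The Proliferating share given above was also lower in the CIN_high library.

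Among the licensing and helicase genes, Mcm3 was at 0.182 (CIN_high, 523 UMIs) and 0.274 (CIN_low, 1221 UMIs) UMIs per 10000, 1.51-fold lower in CIN_high epithelium (1.32 to 1.72). Gins1, a GINS subunit, was at 0.0292 (88 UMIs) and 0.0469 (205 UMIs), 1.61-fold lower (1.17 to 2.19). The 6 MCM2-7 genes together stood at 1.26 and 1.64 (ratio 0.769, 0.730 to 0.810). Their single ratios were not alike: Mcm4 was at 0.177 and 0.253 (ratio 0.700), whereas Mcm7 was at 0.454 and 0.526 (ratio 0.864). Cdc6, the loader of the helicase, was the 1 member above 1, at 0.0739 and 0.0704 (ratio 1.05), and its counting interval spans 1.

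Among the polymerase, clamp and loader genes, Rfc5 was at 0.0751 (234 UMIs) and 0.122 (519 UMIs), 1.63-fold lower in CIN_high epithelium (1.34 to 1.98). Pola1, the catalytic subunit of polymerase alpha, was at 0.0824 and 0.126, 1.53-fold lower (1.249 to 1.871). Pcna was at 0.775 and 1.01 (ratio 0.766), Rfc2 at 0.307 and 0.409, and Rfc3 at 0.236 and 0.324 (ratio 0.726, 0.645 to 0.818). All 10 genes of the role had a ratio below 1, and their median log2 ratio was -0.40.

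Of the nucleotide supply genes, Rrm2 was at 0.0822 (276 UMIs) and 0.132 (666 UMIs), 1.60-fold lower (1.33 to 1.92). Its partner Rrm1, the large subunit of the same enzyme, was at 0.346 and 0.399. Tyms, which makes thymidylate, was at 0.211 and 0.286, and Dut, which removes dUTP, at 0.358 and 0.433. Among the chromatin genes, Hells, a remodeller needed for DNA methylation, was the most different member, at 0.245 (672 UMIs) and 0.420 (1742 UMIs), 1.72-fold lower (1.53 to 1.92). Chaf1b, a chromatin assembly factor subunit, lay just outside the 1.5-fold line at 0.0808 and 0.119 (ratio 0.682), as Mcm3 lay just inside. Slbp was at 0.5005 and 0.536 (ratio 0.934). The 31 genes neither past the line nor above 1 had ratios between those of Chaf1b and Slbp. The transcription factor gene E2f1 was at 0.0277 (79 UMIs) and 0.0451 (172 UMIs), 1.63-fold lower (1.15 to 2.29), Ccne1, which encodes cyclin E1, had a ratio of 0.793, and Clspn one of 0.839. The strand joining genes Lig1 and Fen1, a ligase and a flap nuclease, had ratios of 0.809 and 0.769.

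Hells lies on chromosome 19 (38930915 to 38971051, mm10, GENCODE M21), Mcm3 on chromosome 1 (20802968 to 20820312), E2f1 and Gins1 on chromosome 2 (154559407 to 154569892 and 150905400 to 150931280), Rfc5 on chromosome 5 (117378103 to 117389047), Rrm2 on chromosome 12 (24708241 to 24714146) and Pola1 on the X chromosome (93304767 to 93632155). All are protein-coding, and the 39 genes lie on 15 chromosomes. The other parts of the replication machinery were given by a second list of 65 measured genes. Of these 9 were past 1.5-fold on the lower side in CIN_high epithelium and 0 on the higher side, against 7.7% and 4.16% of all measured genes. Their median log2 ratio was -0.31. They included the clamp loading factor Dscc1 (1.99-fold), the polymerase epsilon subunit Pole2 (1.87-fold), the uracil glycosylase Ung (1.84-fold), the cohesin acetylase Esco2 (1.82-fold), the pocket protein gene Rbl1 (1.71-fold) and the origin factor Ticrr (1.69-fold).

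**Figure D2:**
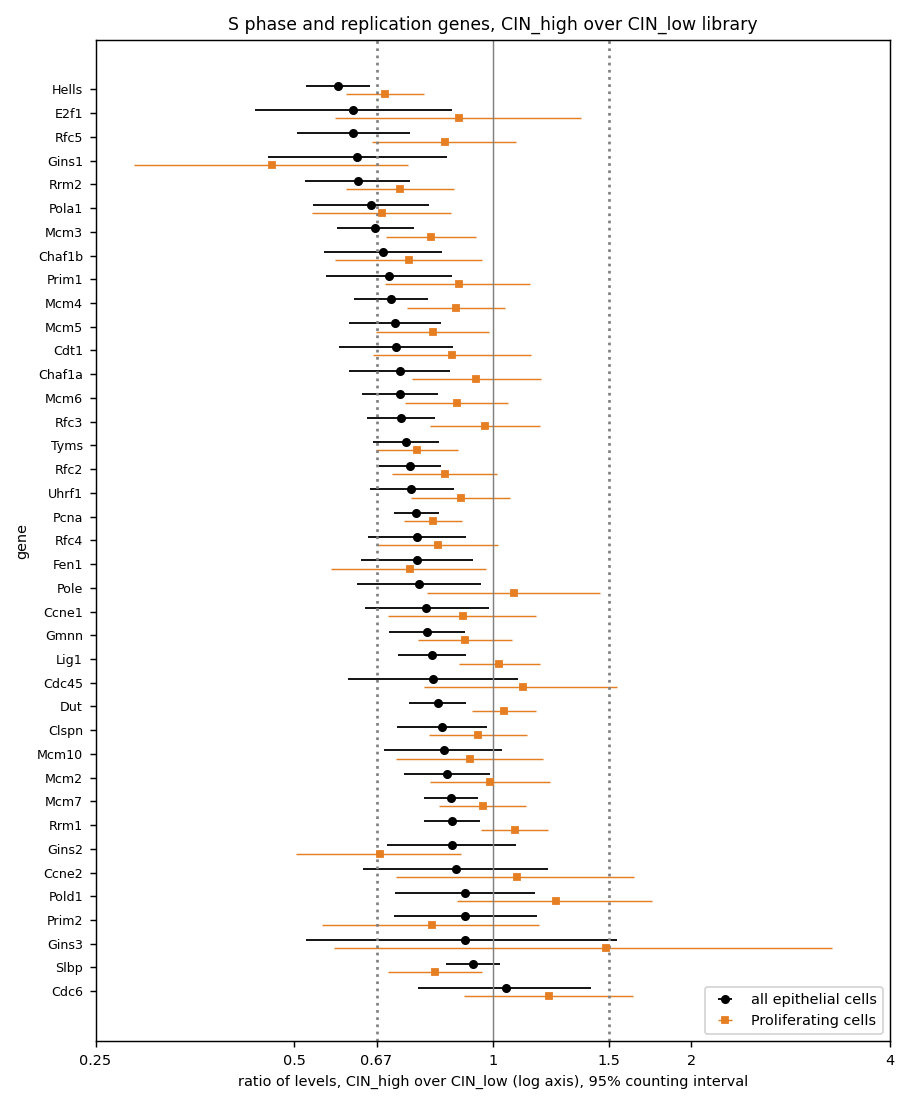
Ratio of levels, CIN_high over CIN_low, for each of the 39 genes on a log axis, with 95% counting intervals, in all epithelial cells (black circles) and in Proliferating cells (orange squares), with dotted lines at 1.5-fold. The circles of 38 genes lie below 1 and 7 lie past the lower line, whereas among the squares Gins1 alone does.

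Proliferating cells had nearly the same median depth in both libraries, with 2945592 UMIs over 111 cells (CIN_high) and 5950474 over 199 cells (CIN_low). Their mean depth was higher in the CIN_low library. Within these cells the 39 genes were closer. Their summed level of 28.0 and 31.7 gave a ratio of 0.883 (0.857 to 0.910). Of the 39 genes 1 was at least 1.5-fold lower in CIN_high cells and 0 were higher, against 13.6% and 11.4% of all 13757 measured genes. The ratio was below 1 for 30 of them, against 56.2% of all genes, and their median log2 ratio was -0.17, against -0.06. The 1 gene was Gins1, at 0.0873 (32 UMIs) and 0.189 (109 UMIs), 2.16-fold lower (1.34 to 3.50), with a UMI in 18.02% of CIN_high and 38.7% of CIN_low cells. Hells stood at 1.33 and 1.93 (ratio 0.688, 0.600 to 0.788), Pola1 at 0.438 and 0.645 (0.680), Rrm2 at 0.627 and 0.867 (0.724), Tyms at 1.15 and 1.49 (0.768) and Pcna at 2.42 and 2.99 (0.812). These stayed below 1 beyond counting error without reaching the line. Counting error leaves out the spread between cells, which was wide. At 5000 UMIs the lower and upper quartiles were 7 and 20.25 UMIs of the 39 genes per CIN_high Proliferating cell. They were 8 and 22.25 per CIN_low Proliferating cell. Whether the ratios stay below 1 beyond that spread was not tested. Rrm1 stood at 2.12 and 1.96, Dut at 2.05 and 1.97, Lig1 at 1.32 and 1.29, and Mcm7 at 1.33 and 1.38, each with an interval that spans 1. E2f1 and Rfc5, both past the line over all epithelium, had ratios of 0.888 (0.576 to 1.36) and 0.847 (0.657 to 1.08) here. Uhrf1, Clspn and Ccne1 had ratios between 0.895 and 0.951. The highest ratio was that of Gins3, from 19 and 33 UMIs, at 1.48 (0.574 to 3.27).

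Outside the Proliferating cells the summed level was 4.40 (4.28 to 4.51) in CIN_high and 5.19 (5.09 to 5.30) in CIN_low epithelium, a ratio of 0.846 (0.818 to 0.875). Past 1.5-fold were 3 of 39 genes on the lower side and 0 on the higher, against 7.9% and 4.42% of all measured genes. The ratio was below 1 for 33 genes, against 65.6%, and the median log2 ratio was -0.21, against -0.09. The 3 were E2f1 at 0.0143 and 0.0256 (30 and 71 UMIs), Rfc5 at 0.0463 and 0.0784, and Hells at 0.145 and 0.223, which was 1.54-fold lower (1.29 to 1.83). The G2 and M phase genes, at 1.95 and 2.03, had a ratio of 0.959 (0.908 to 1.01) in these cells. With the epithelial subtypes weighted alike in both libraries, 0 of the 39 genes were at least 1.5-fold lower over all epithelium. The share of all genes under this weighting is not given here. The median log2 ratio was then -0.21 and the ratio of summed levels 0.852.

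By subtype, the summed level in Cancer_cell_1, the largest epithelial subtype, was 4.54 and 5.76 (ratio 0.788, 0.753 to 0.825). In it 8 of 39 genes were at least 1.5-fold lower in the CIN_high library against 8.48% of all genes, and 0 higher against 5.98%. There 37 of the 39 ratios were below 1, against 63.4%. The 8 included the chromatin genes Chaf1a at 0.0551 and 0.100, Uhrf1 at 0.0400 and 0.0642 and Hells at 0.165 and 0.252. Rfc5 was at 0.0378 and 0.0741 there. In Stem_cell_1 the summed level was 4.62 and 5.43 (ratio 0.850, 0.797 to 0.907). Lower there were 7 of 38 measured genes, against 13.0%, among them Mcm3 at 0.106 and 0.196 and Mcm4 at 0.127 and 0.209. Higher were 2, against 8.69%, which were Cdc6 and Clspn, both with an interval that spans 1. Enterocytes were at 3.10 and 3.31 (ratio 0.935, 0.766 to 1.14), with 14 of 37 genes lower and 7 higher, against 22.7% and 18.3%. The p57+_cancer_cell subtype, named for p57, an inhibitor of cyclin-dependent kinases, were at 3.85 and 3.93 (ratio 0.981, 0.855 to 1.12), with 7 of 34 lower and 9 higher, against 15.9% and 17.7%. The difference between the subtypes in this ratio was not tested. Secretory cells (54 and 48 cells) stood at 2.87 and 3.52, and the Igfbp+_cell subtype (25 cells of the CIN_high library) at 7.63. Scrublet, a doublet caller, marked 11 of these 25 cells (44.0%) as doublets, against 3.88% of all CIN_high epithelial cells. Its rate was higher still in the Complement+_stem_cell subtype (64.1% in CIN_high, 75.3% in CIN_low) and the S100a8/s100a9+_cell subtype (87.5% and 72.2%). All of these subtypes are among the other epithelial cells. The part of marked doublets in the levels of these subtypes was not tested.

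Markers of other cells moved with the library as well. The 5 neutrophil markers, all with UMIs in both libraries, summed to 6.27 (CIN_high) and 17.5 (CIN_low) UMIs per 10000 in epithelial cells, and to 0.708 and 5.12 in Proliferating cells. The 7 myeloid markers, all with UMIs, summed to 2.91 and 4.10 in epithelial cells and to 2.94 and 1.95 in Proliferating cells. Of the 6 fibroblast markers 6 and 5 had UMIs in epithelium, with Lum at 0 in the CIN_low library, and summed to 0.549 and 0.0300. Mitochondrial transcripts took a median of 12.02% and 10.31% of epithelial UMIs and 10.2% and 8.89% in Proliferating cells. The part of these in the S phase gene differences was not tested.

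A mean does not say whether few cells held many of these transcripts or many cells held few. Each cell was therefore thinned to 2000 UMIs, leaving out 33 and 9 shallower epithelial cells, and called S-gene-rich with UMIs of at least 4 of the 39 genes. This is a range of a score, not a cell type. The share of S-gene-rich cells was 95 of 1283 CIN_high epithelial cells (7.40%, 6.03% to 8.98%) and 196 of 1716 CIN_low epithelial cells (11.4%, 9.96% to 13.0%). On the line, with exactly 4 genes, were 27 and 68 of them, and 62 and 93 cells had 3. Without thinning the shares were 58.3% and 66.9%. In Proliferating cells 62 of 111 (55.9%, 46.1% to 65.3%) and 129 of 199 (64.8%, 57.8% to 71.4%) were S-gene-rich. In the other epithelial cells the shares were 2.82% (1.95% to 3.93%) and 4.42% (3.44% to 5.57%). Of these 33 and 67 cells, 19 and 36 lay on the line, and with a line of 6 genes the shares were 0.597% and 1.19%. Fibroblasts, as a type with few cycling cells, gave 1 of 948 cells in the CIN_high library (0.105%, up to 0.586%), at a median depth of 6764 UMIs against 14032.5 in epithelium, and 0 of 20 in the CIN_low library (exact upper limit 16.8%, where 3 cells would be 15%).

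Cells annotated Proliferating made up 65.3% (CIN_high) and 65.8% (CIN_low) of the S-gene-rich epithelial cells. The remaining S-gene-rich cells fell mostly in Cancer_cell_1 (16 and 36 cells) and Stem_cell_1 (11 and 19 cells), where they were 2.97% and 5.07%, and 3.25% and 5.64%, of the subtype. Because subtypes are drawn from the same expression values, the comparison that follows is a description. These 33 and 67 cells outside the Proliferating subtype held fewer transcripts of the G2 and M phase genes than Proliferating cells. At 2000 UMIs their median was 0 and 1 such UMI, and 63.6% and 47.8% of them had none, against 76.9% and 76.0% of the other epithelial cells that were not S-gene-rich. S-gene-rich Proliferating cells had medians of 6.5 and 7, and Proliferating cells that were not S-gene-rich 9 and 12. Scrublet marked 2 of the 33 and 6 of the 67 as doublets. In the p57+ subtype 0 of 77 CIN_high cells (exact upper limit 4.68%, where 3 cells would be 3.90%) and 1 of 210 CIN_low cells (0.476%) were S-gene-rich, and among enterocytes 0 of 95 (exact upper limit 3.81%, where 3 cells would be 3.16%) and 3 of 91 (3.30%).

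**Figure D3:**
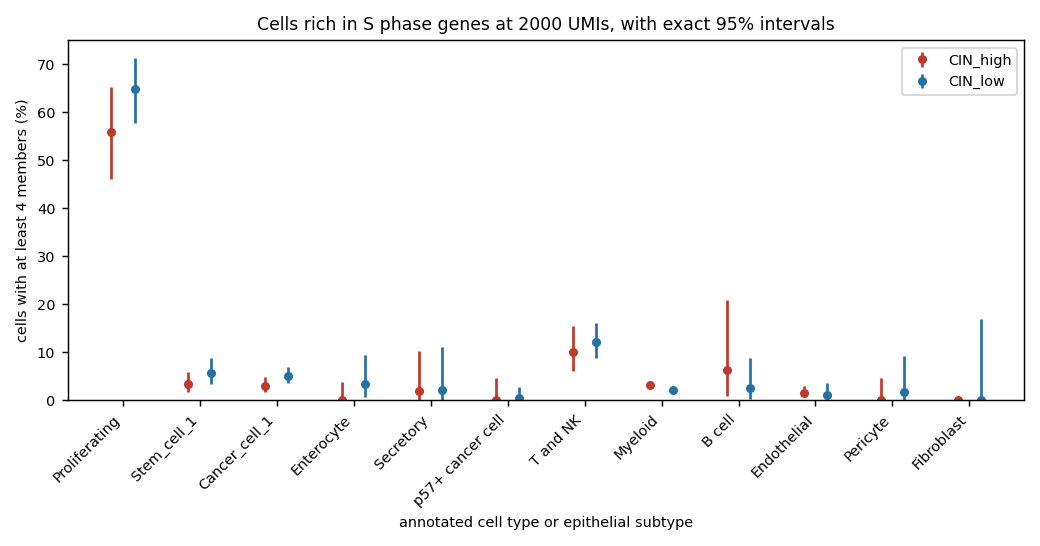
Share of cells with UMIs of at least 4 of the 39 genes at 2000 UMIs per cell, by type or epithelial subtype and library, with exact 95% binomial intervals. Proliferating cells lie at 55.9% (CIN_high) and 64.8% (CIN_low), T and NK cells at 10.06% and 12.04%, and the p57+ subtype at 0% and 0.476%.

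The 39 genes did not vary alike among Proliferating cells. The cells were ordered within each library by the share of their UMIs in the 26 G2 and M phase genes and split at the median, into 56 G2/M-poor and 55 G2/M-rich cells (CIN_high) and 100 and 99 (CIN_low). Median depths were 23647.5 and 26374 UMIs (CIN_high) and 24052.5 and 24783 UMIs (CIN_low). The summed level of the 39 genes was 31.5 in G2/M-poor and 24.5 in G2/M-rich cells of the CIN_high library, and 34.4 and 29.0 in those of the CIN_low library. In both libraries 12 of the 39 genes were at least 1.5-fold higher in G2/M-poor cells, against 4.29% of all measured genes, and 0 were that much higher in G2/M-rich cells, against 5.57%. Taken singly, the libraries gave 14 of 39 (17.3% of all genes) and 12 of 39 (15.7%) higher in G2/M-poor cells, and 2 and 3 higher in G2/M-rich cells (19.0% and 16.2%).

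The 12 were the licensing genes Mcm2, Mcm3, Mcm4, Cdc6 and Cdt1, the chromatin genes Chaf1a, Chaf1b, Uhrf1 and Hells, and the G1/S genes E2f1, Ccne1 and Ccne2. Ccne1 was at 0.552 and 0.161 UMIs per 10000 in G2/M-poor and G2/M-rich CIN_high cells, 3.42-fold higher (2.08 to 5.65), and at 0.543 and 0.2505 in CIN_low cells, 2.17-fold higher (1.58 to 3.00). Cdc6 was 2.66-fold (1.59 to 4.65) and 2.71-fold (1.68 to 4.70) higher. Mcm3 was at 1.42 and 0.457 in the CIN_high library, 3.11-fold higher (2.33 to 4.14), and at 1.496 and 0.838 in the CIN_low library, 1.79-fold higher (1.49 to 2.15). E2f1 was 3.97-fold (1.84 to 8.30) and 1.84-fold (1.04 to 3.41) higher, from 14 to 67 UMIs per group. Hells was 2.22-fold and 1.82-fold higher and Uhrf1 1.94-fold and 2.41-fold. These genes of origin licensing, cyclin E and chromatin copying thus stood highest where mitotic transcripts were few.

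None of the 10 polymerase, clamp and loader genes and none of the 4 nucleotide supply genes was among the 12. Members of these roles lay on both sides of 1. Rrm2 passed the line in the CIN_high library alone, with ratios of 1.62 (1.17 to 2.23) and 1.19 (0.961 to 1.465). Pcna had ratios of 1.29 (1.09 to 1.53) and 1.19 (1.06 to 1.34), and Rfc3 of 1.27 (0.933 to 1.72) and 1.42 (1.11 to 1.81). Tyms was at 1.05 and 1.24 UMIs per 10000 in G2/M-poor and G2/M-rich CIN_high cells (ratio 0.849, 0.667 to 1.08), and at 1.17 and 1.81 in CIN_low cells (0.646, 0.546 to 0.763). Rrm1 had ratios of 0.879 (0.725 to 1.06) and 0.765 (0.666 to 0.879). Pola1 had ratios of 0.920 (0.615 to 1.38) and 0.657 (0.495 to 0.868). Geminin (Gmnn), the inhibitor of Cdt1 whose protein builds up in S phase and lasts to mitosis, stood at 0.944 and 0.826 in CIN_high and 0.950 and 0.999 in CIN_low cells (ratios 1.14 and 0.951), whereas the gene of its target, Cdt1, was 1.74-fold and 1.95-fold higher in G2/M-poor cells. Gins3 had ratios of 0.623 (0.160 to 3.02, from 9 and 10 UMIs) and 0.688 (0.274 to 1.72, from 15 and 18 UMIs), and both intervals span 1.

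**Figure D4:**
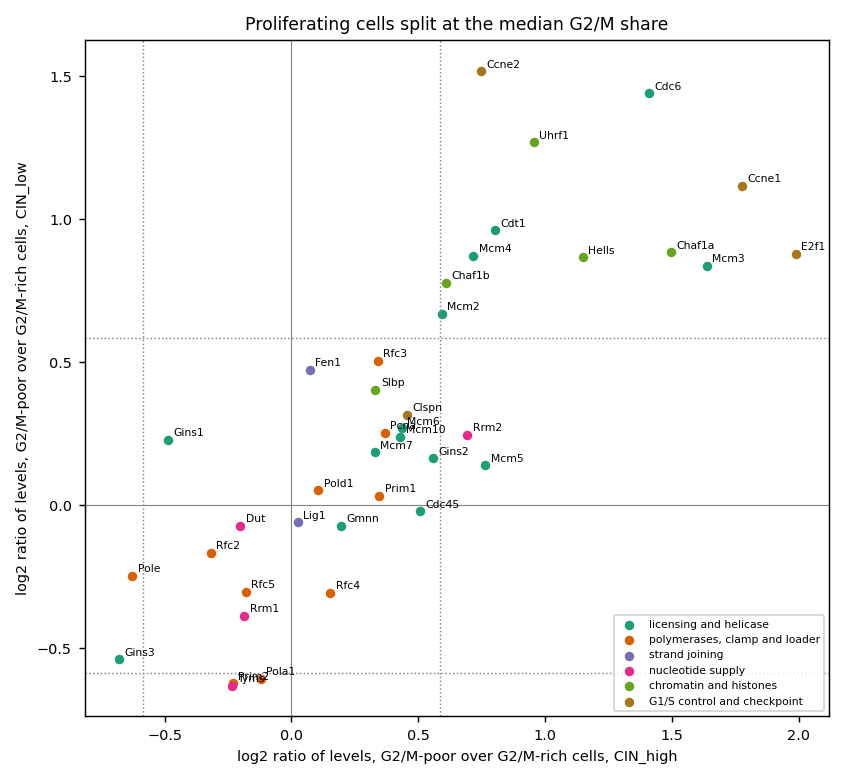
Log2 ratio of each gene's level in G2/M-poor over G2/M-rich Proliferating cells, CIN_high on the horizontal and CIN_low on the vertical axis, coloured by role, with dotted lines at 1.5-fold. The upper right corner past both lines holds 12 genes, all of licensing, chromatin or G1/S roles, and the lower left corner past both lines holds 0.

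Cell by cell, the 2 sets of transcripts were only weakly related. At 5000 UMIs per cell, which left out 3 Proliferating cells of each library, the median cell held 11.5 (CIN_high) and 13 (CIN_low) UMIs of the 39 genes and 20 and 23 of the 26 G2 and M phase genes. The S phase genes outnumbered the others in 40 of 108 cells (37.0%) and 67 of 196 cells (34.2%). Pearson's r between the 2 counts was -0.13 over 108 and -0.16 over 196 cells. These cells share a library and a fixed total, so r is a description.

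**Figure D5:**
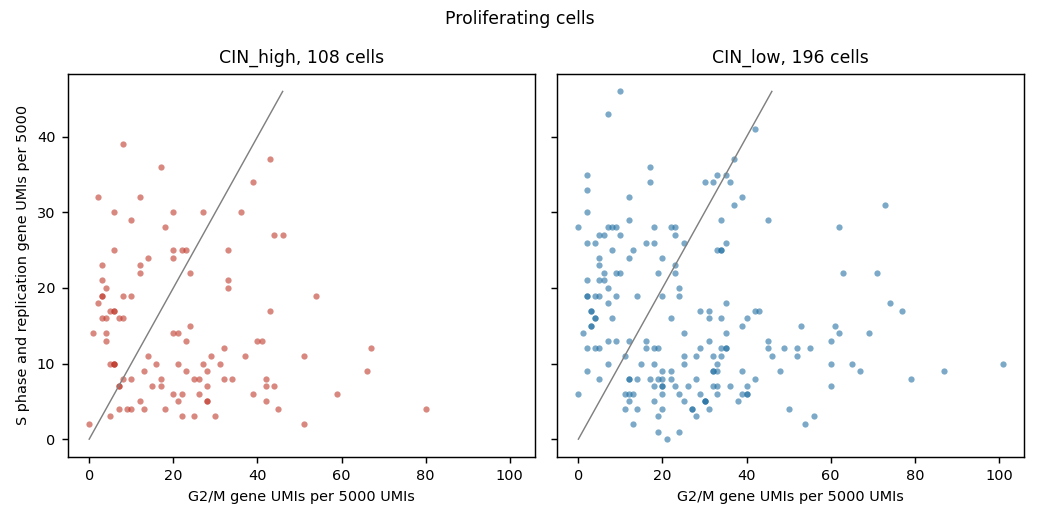
UMIs of the 39 S phase genes against UMIs of the 26 G2 and M phase genes in each Proliferating cell thinned to 5000 UMIs, CIN_high (108 cells) on the left and CIN_low (196 cells) on the right, with the line of equal counts. Cells with many S phase and few G2 and M phase UMIs lie along the left edge of both panels, and 37.0% and 34.2% of the cells lie above the line.

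The p57+ subtype, with 1 S-gene-rich cell in both libraries together, was also followed gene by gene. Compared with the other non-Proliferating epithelial cells, 10 of the 39 genes were at least 1.5-fold lower in p57+ cells of both libraries, against 12.7% of all measured genes, and 0 were higher in both, against 13.1%. This comparison was chosen after the values were seen, for a subtype already low in a score from the same genes. In the same comparison, Stem_cell_1 had 1 of 39 genes lower and 2 higher in both libraries, and Cancer_cell_1 had 1 lower and 1 higher. The share of all genes is not given here for Stem_cell_1 and Cancer_cell_1. Enterocytes and Secretory cells, whose summed levels given above were lower still, were not compared in this way. Low levels are thus not particular to the p57+ subtype. The 10 were Mcm3, Mcm5, Mcm6, Cdc6, Prim1, Lig1, Tyms, Chaf1a, Chaf1b and Uhrf1, each from 10 UMIs or fewer in p57+ cells of the CIN_high library. Mcm3 and Mcm6 had intervals below 1 in both libraries, with ratios of 0.139 (0.0167 to 0.696) and 0.344 (0.183 to 0.597) for Mcm3 and of 0.231 (0.0218 to 0.904) and 0.178 (0.0676 to 0.387) for Mcm6. Uhrf1 was at 0.0284 and 0.0563 UMIs per 10000 in p57+ and other cells of the CIN_high library (2 and 116 UMIs), and at 0.00979 and 0.0637 in the CIN_low library (3 and 164 UMIs), a ratio with an interval that spans 1 in the CIN_high library and of 0.154 (0.0239 to 0.570) in the CIN_low library. Lig1 was at 0.0837 and 0.144, and at 0.108 and 0.177. Exceptions were Mcm10 and Rfc3. Mcm10, which helps switch on the helicase, was at 0.193 in p57+ cells and 0.0628 in other cells of the CIN_low library, 3.07-fold higher (2.03 to 4.53, 50 UMIs), and at 0.105 and 0.0738 in the CIN_high library, where the interval of 0.616 to 2.94 spans 1. Rfc3 was 1.63-fold (1.01 to 2.51) and 1.41-fold (1.10 to 1.77) higher.

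Among non-epithelial cells, T and NK cells had the highest summed level of the 39 genes, 8.90 (8.21 to 9.62) in the CIN_high and 9.34 (8.84 to 9.87) in the CIN_low library (ratio 0.952, 0.864 to 1.05). Endothelial cells followed at 4.69 and 4.21, pericytes at 4.56 and 4.07, myeloid cells at 4.198 and 3.671, B cells at 4.17 (40 cells) and 3.36 (93 cells), and fibroblasts at 3.60 (966 cells) and 3.59 (21 cells). Below T and NK cells the intervals of neighbours in this order overlap. In T and NK cells the G2 and M phase genes summed to 3.17 and 3.56, against 5.54 and 7.83 in all epithelial cells. The Proliferating subtype, a part of the epithelium, stood at 44.6 and 52.3. In T and NK cells Slbp stood at 1.17 and 1.04 UMIs per 10000, Dut at 0.669 and 0.707, and Lig1 at 0.672 and 0.666. Mcm6 stood at 0.671 and 0.562 in them, and Pcna at 1.00 and 1.32. Cells that were S-gene-rich made up 18 of 179 (10.1%, 6.07% to 15.4%) and 39 of 324 (12.04%, 8.70% to 16.1%) T and NK cells deep enough to be thinned, with 55 and 90 left out, and 33.3% and 43.6% of them had no G2 and M phase UMI. Of 35 measured genes 9 were at least 1.5-fold lower in CIN_high T and NK cells and 2 higher, against 16.7% and 13.4% of all genes. All of these 11 had an interval that spans 1.

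In myeloid cells the S-gene-rich share was 79 of 2589 (3.05%, 2.42% to 3.79%) in the CIN_high and 106 of 4972 (2.13%, 1.75% to 2.57%) in the CIN_low library. Since myeloid cells were the most numerous type, they held 39.1% and 30.6% of all S-gene-rich cells, against 47.0% and 56.6% in epithelium. Of 32 measured genes 4 were at least 1.5-fold higher in CIN_high myeloid cells and 0 lower, against 7.83% and 3.3% of all genes. The 4 were Mcm5 at 0.0746 and 0.0444 UMIs per 10000, Gins3 at 0.0347 and 0.0195, Rfc3 at 0.0814 and 0.0520 and Rfc4 at 0.0590 and 0.0384. The median log2 ratio was 0.26, where the median over all myeloid genes was itself 0.22. In endothelial cells 8 of 28 measured genes were lower and 6 higher, against 19.6% and 12.8%. In pericytes, with 83 and 58 cells, 7 of 31 were lower and 15 higher, against 24.2% and 25.7%. Log2 ratios of single genes ran from -2.575 to 3.613 in these few cells, and their counting intervals are not given here. Of the pericytes deep enough to be thinned, 0 of 79 (exact upper limit 4.56%, where 3 cells would be 3.8%) and 1 of 58 were S-gene-rich.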

How the data were processed

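Single-cell libraries of distal colon adenomas were measured in 2 samples, 1 per group. The authors deposited natural log values, ln of 1 plus UMIs per 10000, which after exponentiation summed to 10000 in every cell. Division by the smallest non-zero value of a cell gave whole numbers (within 0.01) for 100% of non-zero values, so UMIs were recovered. Per the submitters' processing notes, Cell Ranger 2.1.1, Seurat and mm10 were used. For filters, the annotation release and doublet treatment: not given in the sources used here. Cell types, subtypes and CIN classes are the authors' deposited annotation.

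Levels are means over cells with 95% Poisson (gamma) intervals for weighted counts, and shares have exact Clopper-Pearson intervals. Genes at 0 were compared at a floor of 3 UMIs over the group. A comparison needed 50 cells per library, a measured gene a UMI in 2% of cells of either side, and 11 types, subtypes or pools of them were compared. Intervals treat UMIs as independent. With 1 library per group, no model was fitted. Given with full values were members past 1.5-fold with at least 30 UMIs and the 3 of highest epithelial level in each role. The members and lists were chosen with earlier results of these data known. The comparison of the p57+ subtype with other cells and the Mcm6 stretch were chosen after values were seen. Scrublet (Scanpy 1.11.5, expected rate 6%) marked 124 (2.00%) and 256 cells (3.24%), which were kept. Python 3.11.15, numpy 2.4.6, pandas 2.3.3, SciPy 1.17.1 and matplotlib 3.10.9 were used, and the code was tested on simulated data. Alternatives changed the totals, the centring, the subtype mix, the fold line, the thinning depth and the doublets. Promoters and coordinates are from RefSeq GRCm38.p6 and GENCODE M21.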

Additional observations from a re-analysis of the deposited data

Results flagged for a closer look

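Rfc3, a clamp loader subunit, differed in sign between cell types. Its log2 ratio of CIN_high over CIN_low was 0.65 in myeloid cells (0.0814 and 0.0520 UMIs per 10000, 191 and 271 UMIs), where the median over all measured genes was 0.22, and -0.59 in Cancer_cell_1 (0.220 and 0.332 UMIs per 10000, 201 and 405 UMIs). The change of sign was not particular to Rfc3. Over the measured members the median log2 ratio was 0.26 in myeloid cells and -0.36 in Cancer_cell_1. Ratios were below 1 for 7 of 32 and 37 of 39 of them, against 2070 of 9772 and 8134 of 12836 measured genes. With 1 library per class, the difference between these cell types was not tested.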

How the results depend on the processing

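No paired analysis was possible because each class is 1 library, and no replicate could be left out. The direction over the 39 genes held under every alternative run. Over all epithelium the median log2 ratio of -0.38 was -0.21 with a standardised subtype mix and -0.21 without Proliferating cells. The summed ratio of 0.774 was 0.795 with totals without mitochondrial and ribosomal protein genes, 0.828 centred on the median of all genes, 0.852 with a standardised mix and 0.846 without Proliferating cells. The 7 lower genes became 4 when centred, 0 with a standardised mix and 3 without Proliferating cells. They became 24 at a lower fold line, whose value is not given here, and 0 at a 2-fold line. Without Proliferating cells 7.9% of all measured genes were lower, and for the other settings this share is not given here. A lower line also calls more of all genes. These and the later counts at altered settings are therefore no result about the 39 genes alone. In Proliferating cells the summed ratio of 0.883 was 0.913 without mitochondrial and ribosomal protein genes and 0.919 when centred. The 1 lower gene became 3 at 5000 UMIs and 8 at the lower line, and 0 higher became 1 without doublets, at 5000 UMIs, without mitochondrial and ribosomal protein genes, when centred and at the lower line. In the other epithelium centring gave a median of -0.12 and a summed ratio of 0.903, and the 3 lower genes became 15 at the lower line and 0 at 2-fold. S-gene-rich shares of epithelial cells (CIN_high and CIN_low) were 12.2% and 16.8% with a line of 3 genes, 3.90% and 5.65% with 6, 20.5% and 27.5% at 5000 UMIs, and 58.3% and 66.9% unthinned. Those of Proliferating cells were 67.6% and 75.9%, 38.7% and 39.7%, 88.9% and 93.9%, and 97.3% and 99.5%. The other 84 values of these summaries stayed within their counting error or, for counts, within 1.5 times. So did 665 values of single genes, and 37 did not. Depth limits the genes with few UMIs, such as Gins3 with 39 and 68 in epithelium, and the p57+ subtype.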
